A study of Mus musculus with 11 samples.

Results

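Potassium channel genes were examined in the aorta of old mice with and without dietary nitrate. The members were all probes other than control spots whose gene name begins with Kcn followed by a letter, together with Abcc8 and Abcc9, which encode the regulatory subunits of ATP-sensitive potassium channels. This gave 97 of the 36413 gene names on the array and 140 of its 55681 probes. RNA came from the descending aorta of male C57BL/6 mice at 20 months of age, rinsed and freed of surrounding fat and connective tissue, with 1 one-color array for each mouse. In the nitrate group (n = 5) the drinking water held 1 g/L of NaNO3 for 8 weeks, and 6 mice formed the control group. The methods name sodium chloride as the control salt. The labels of the control samples name no salt and refer to an earlier analysis of these animals, and whether both groups were kept and sampled together was not tested.

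Potassium channels let potassium leave the cell and so pull the membrane potential of arterial smooth muscle to more negative values, which closes voltage-dependent calcium channels and relaxes the vessel. Voltage-gated and calcium-activated channels open on depolarization or a rise in calcium, ATP-sensitive channels follow the metabolic state of the cell, and inward rectifiers and K2P channels set the resting potential. Nitric oxide, which dietary nitrate can supply after reduction to nitrite, is known to relax arteries in part through cGMP-dependent protein kinase and the large-conductance calcium-activated channel.

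The signal of each probe is given as the log2 of the background-subtracted intensity after quantile normalization across the 11 arrays. A gene was called expressed when 1 of its probes was well above background, a flag set by the scanning software, on at least 5 arrays of either group. Levels of different probes are not compared, since probes differ in how strongly they bind. In whole aorta, fewer cells of a type and less RNA per cell cannot be told apart.

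Of the 97 potassium channel genes, 42 (43.3%) were expressed in old aorta. A further 18 genes were above background on fewer arrays, and 37 genes were above background on none. At the level of probes, 50 of 140 (35.7%) were expressed, against 47% of all probes on the array. The number of potassium channel probes above background was 57, 55, 57, 64 and 62 in nitrate mice 1 to 5 and ran from 51 to 66 in the controls, so the groups overlapped.

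**Figure D1:**
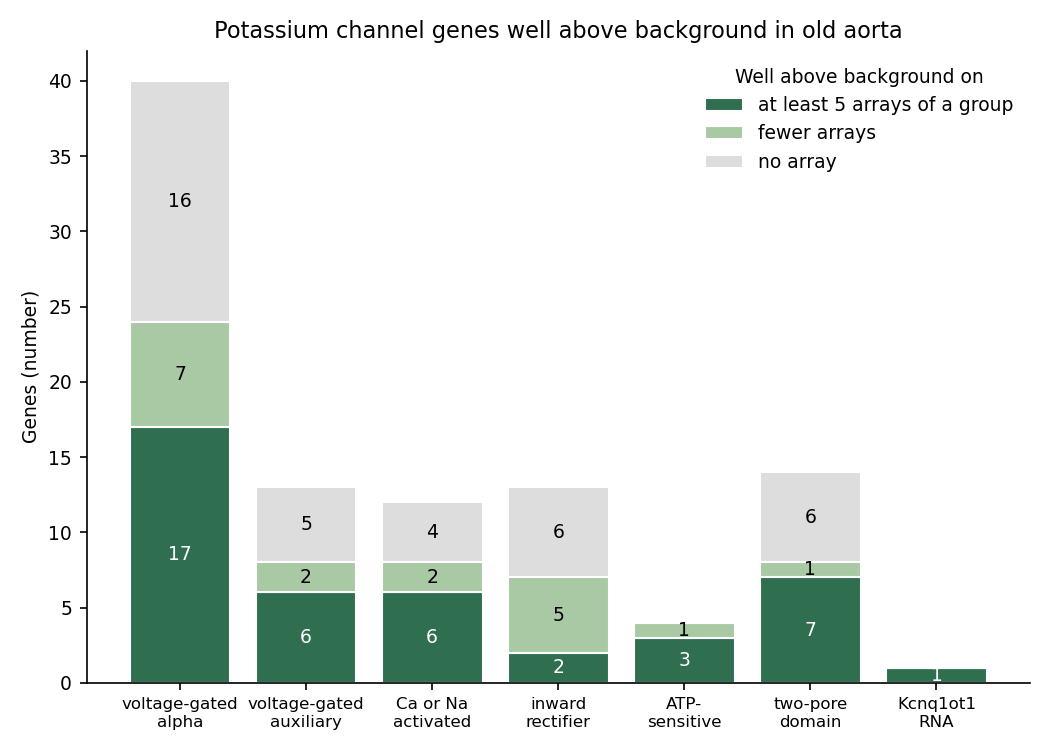
Number of potassium channel genes in each channel class, divided by the number of arrays on which a probe of the gene was well above background. The voltage-gated alpha subunits held 17 expressed genes of 40, and the inward rectifiers 2 of 13.

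Among the pore-forming voltage-gated alpha subunits, 17 of 40 genes were expressed. They included Kcna1, Kcna2, Kcna4, Kcna5, Kcna6 and Kcna7 of the Shaker-related family, Kcnc4, Kcnd1, Kcnd3, Kcnh2, Kcnh3, Kcnh4, Kcnq1 and the modulatory subunit Kcns3. Kcnq5, another channel known from arterial muscle, was above background in 4 of 5 nitrate and 4 of 6 control mice and so was not counted as expressed. Of the 13 auxiliary genes 6 were expressed, namely Kcnab1, Kcne1l, Kcne3, Kcne4, Kcnip3 and Kcnip4. Of the 12 calcium- or sodium-activated genes 6 were expressed. These were the large-conductance alpha subunit Kcnma1, its smooth muscle partner Kcnmb1, the small- and intermediate-conductance channels Kcnn3 and Kcnn4 known from endothelium, and the sodium-activated channels Kcnt1 and Kcnt2. The other subunits of the Kcnmb1 family, Kcnmb2, Kcnmb3 and Kcnmb4, were above background on no array.

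Inward rectifiers were sparse, with Kcnj12 and Kcnj15 as the 2 expressed genes of 13. The probe of Kcnj2, the inward rectifier usually described in arterial muscle, was above background on no array. Of the 4 genes of ATP-sensitive channels, the pore subunit Kcnj8 and the regulatory subunits Abcc9 and Abcc8 were expressed. The second pore subunit, Kcnj11, was above background in 4 of 5 nitrate and 4 of 6 control mice. Of the 14 K2P genes 7 were expressed, namely Kcnk1, Kcnk3, Kcnk4, Kcnk6, Kcnk13, Kcnk15 and Kcnk16. The probe of the mechanosensitive channel Kcnk2 was above background on no array. Kcnq1ot1, a noncoding RNA transcribed from within the Kcnq1 locus and named by the same rule, was also expressed.

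The comparison of nitrate with control mice asked whether dietary nitrate altered the RNA of these channels. It could be tested for 45 potassium channel probes of 39 genes. Kcnk1, Kcnn3 and Kcnq1 were expressed but their spots were not found by the software on enough arrays. The methods' threshold was used, an unadjusted p under 0.05 in limma with a fold change above 1.2. It was passed by 7 of the 45 probes (15.6%), against 9.00% of all 23633 tested probes. Kcnh2, Kcne4, Kcnt2, Kcna6 and Kcnj12 were higher in nitrate mice (5 probes, where 4.16% of all tested probes passed in that direction), and Kcna5 and Kcnk3 were lower (2 probes, where 4.85% passed). No member passed a Benjamini-Hochberg adjusted p of 0.05 in limma, which 3 probes of the whole array did (0.0127%), while 8 members had an unadjusted p under 0.05 (14.4% of all tested probes) and 6 an adjusted p under 0.20 (2.51%). The groups did not overlap for 5 members, against 2.75% of all tested probes, with 4 higher in nitrate (1.61%) and 1 lower (1.14%). With 1 probe for each gene name, 5 of 39 genes passed the threshold, against 8.89% of all names tested.

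The nitrate mean was the higher one for 31 of the 45 members (68.9%), against 53.8% of all tested probes. The median difference of nitrate minus control was 0.10 on the log2 scale over the members and 0.01 over all tested probes. The within-group SD had a median of 0.213 over the members and 0.184 over all tested probes. Mouse by mouse, the brightest tested probe of each of the 39 genes was taken, which leaves out the called Kcna5 and Kcna6 probes. The median of these stood 0.15, -0.0020, 0.18, 0.11 and 0.12 from the control mean in nitrate mice 1 to 5. In the control mice it stood between -0.09 and 0.04. Smooth muscle markers moved in the same direction, with 6 of 6 higher in nitrate, 1 of them (Lmod1) past the threshold and a median difference of 0.18. Their summed linear signal was 672000 to 707000 in nitrate and 536000 to 703000 in control mice, and their part in the differences of the channel genes was not tested.

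**Figure D2:**
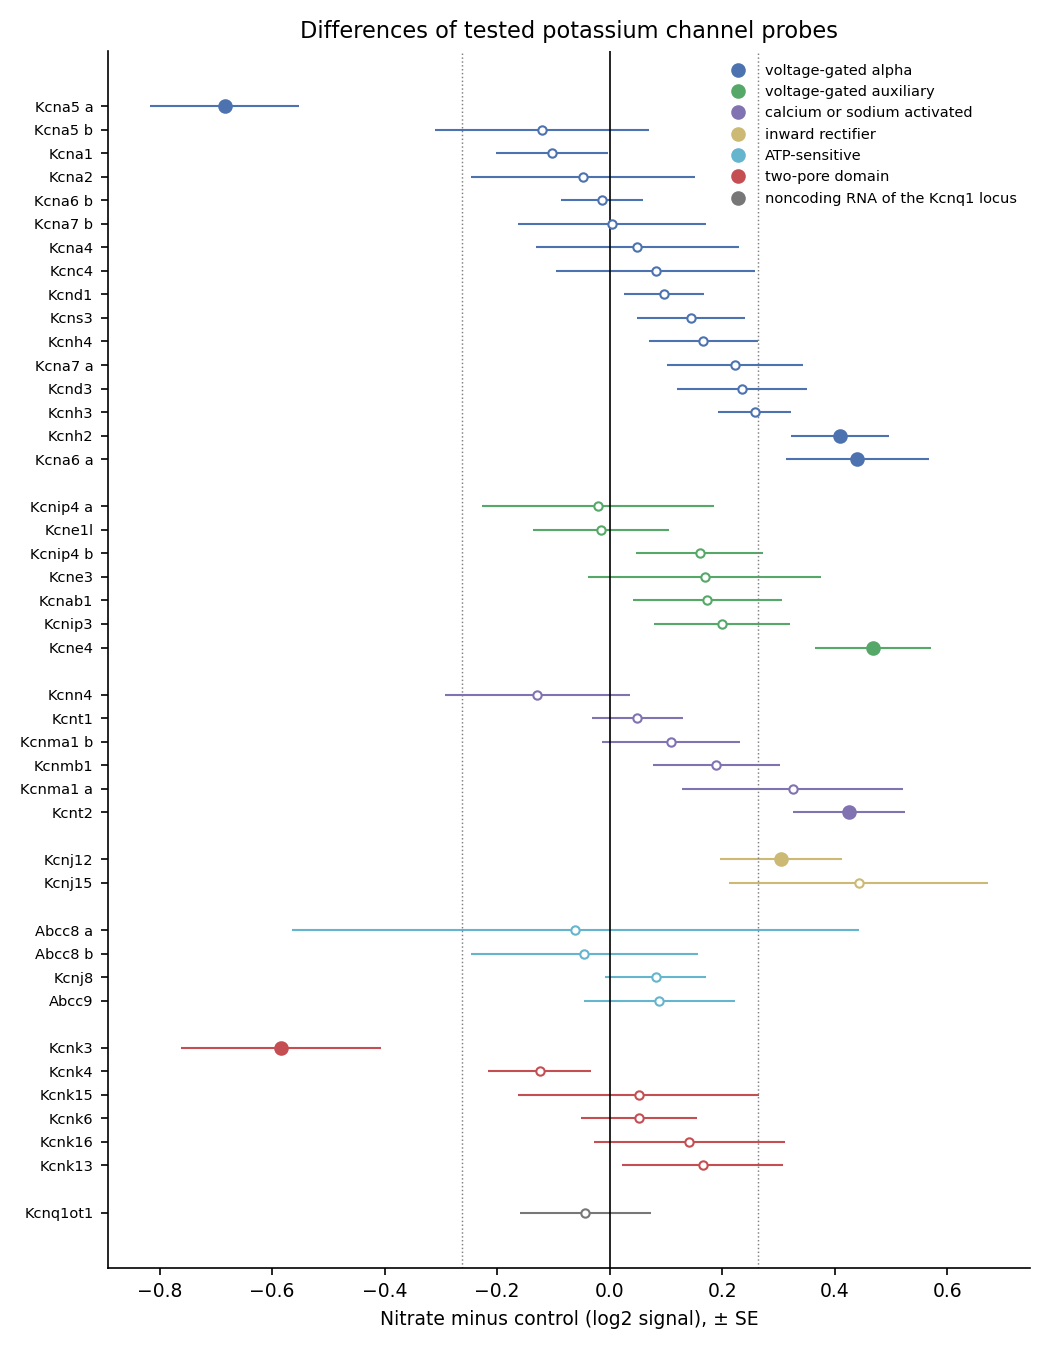
Difference of nitrate minus control in log2 signal for 42 of the 45 tested potassium channel probes, grouped by channel class, with bars of ± 1 SE (n = 5 and 6). Filled points passed an unadjusted p of 0.05 with a fold change above 1.2 (dotted lines), letters a and b mark different probes of 1 gene, and the filled points are 5 higher and 2 lower in nitrate.

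Among the voltage-gated alpha subunits, 2 of 19 tested probes passed the threshold as higher and 1 as lower in nitrate, and 13 had the higher mean in nitrate. Kcnh2 encodes the channel of the rapid delayed rectifier current that repolarizes the heart. Its log2 signal was 8.68, 8.72, 8.56, 8.66 and 8.76 in nitrate mice 1 to 5, and 8.04 at the lowest, 8.30 at the median and 8.51 at the highest in the controls. Every nitrate mouse lay above every control mouse. The difference of 0.41 ± 0.09 (SE) was a 1.33-fold rise, with an unadjusted p of 0.000519 and an adjusted p of 0.115 in limma.

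The promoters of Kcnh2 and Kcne4 are shown because they held a motif searched. Those listed for Kcnt2, Kcna5, Kcna6 and Kcnj12 held none of the 3 motifs. The 250 bases before the start of Kcnh2, taken from RefSeq (GRCm38.p6, chr5:24329592-24329841, minus strand), held 73.6% G and C and 3 copies of the GC box GGGCGG, in capitals, which do not overlap another motif searched.
Kcnh2: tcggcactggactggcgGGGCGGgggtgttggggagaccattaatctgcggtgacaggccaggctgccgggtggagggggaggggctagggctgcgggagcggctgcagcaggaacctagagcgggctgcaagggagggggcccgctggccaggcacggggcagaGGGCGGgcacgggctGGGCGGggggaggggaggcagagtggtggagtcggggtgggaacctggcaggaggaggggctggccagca
On either strand the GC box occurred in 44.8% of the 96 promoters listed for 71 of the member genes, in 41.7% of the 36 of members with a tested probe and in 32.7% of all 32851 promoters of that length. The match is a description of letters, and binding was not measured.

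Kcnh3, a related channel known from brain, showed a smaller and tighter difference. Its log2 signal was 6.71, 6.75, 6.82, 6.55 and 6.83 in nitrate mice and ran from 6.41 through 6.47 to 6.54 in the controls. All nitrate values were above all control values, though the lowest nitrate mouse exceeded the highest control by very little. The difference of 0.26 ± 0.06 (SE) had an unadjusted p of 0.00175 in limma, and its fold change of 1.196 stayed just under the limit of 1.2.

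Kcna6 and Kcna5 encode alpha subunits of Shaker-related channels, and each had different probes that gave different results. One Kcna6 probe measured 7.94, 8.35, 7.82, 7.99 and 7.81 in nitrate mice and 7.31, 7.53 and 7.83 as lowest, median and highest in the controls. The highest control lay just above the lowest nitrate mice, and the groups otherwise separated. The difference was 0.44 ± 0.13 (SE), with an unadjusted p of 0.00476 and an adjusted p of 0.196 in limma. The other tested Kcna6 probe differed by -0.01 ± 0.07 (SE, adjusted p = 0.958 in limma), with 7.97, 7.98, 8.24, 7.93 and 7.83 in nitrate and 7.95 to 8.06 in control mice. The third Kcna6 probe was above background on no array.

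Kcna5, a channel of arterial smooth muscle and atrium, was lower in nitrate mice by 1 of its probes. That probe measured 5.25, 5.19, 5.45, 5.20 and 5.15 in nitrate mice, and 5.47, 6.02 and 6.23 as lowest, median and highest in the controls. No nitrate mouse reached a control mouse, though the highest nitrate value and the lowest control value were close. The log2 signal fell by 0.68 ± 0.13 (SE), a 1.61-fold difference, with an unadjusted p of 0.00025 and an adjusted p of 0.0995 in limma. With another background correction (normexp, with an offset of 50 added to the signal) the difference was -0.28 and still passed the threshold.

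The second Kcna5 probe did not pass the threshold. It measured 6.35, 6.39, 6.79, 6.05 and 5.71 in nitrate and 5.92 to 6.68 in control mice, a difference of -0.12 ± 0.19 (SE, adjusted p = 0.815 in limma). The mean of both probes differed by -0.40 ± 0.12 (SE) and still passed the threshold. The mean of the 2 expressed Kcna6 probes differed by 0.21 ± 0.08 (SE), short of the fold limit. Whether a transcript form or a property of the probes separates them was not tested.

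The first 30 of the 60 bases of these probes show that each pair reads different sequence. Positions are those of mm9, the build of the files, and all lie on the minus strand. The Kcna5 probes start at chr6:126482603-126482632 for probe a, which differed, and chr6:126483403-126483432 for probe b, with 740 bases between them. The Kcna6 probes start at chr6:126658454-126658483 for probe a, which differed, and chr6:126686732-126686761 for probe b, 28.2 kb apart and assigned to different transcript records.
Kcna5 probe a: ggcttttgagaattcattcttttcattttg
Kcna5 probe b: gacctgcgaaggtctctgtatgccctctgt
Kcna6 probe a: gagagttgctggtctgatcaaaggagagga
Kcna6 probe b: tgtcatggtccctctttgtgcctcagttcc

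**Figure D3:**
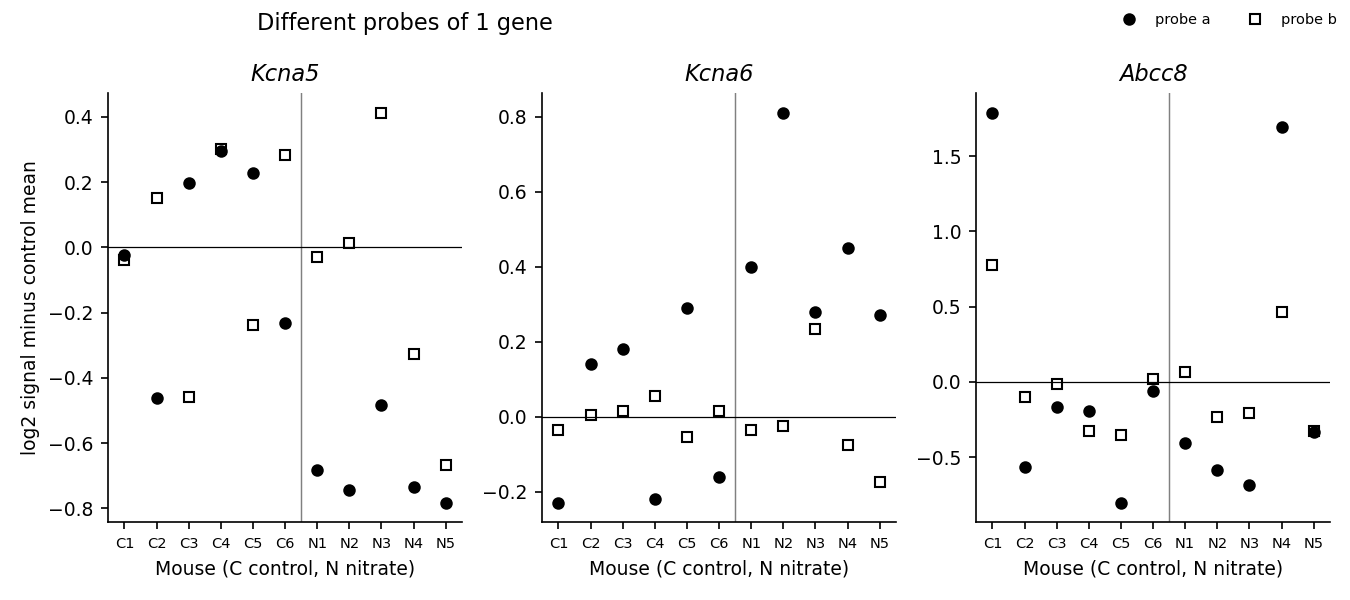
Log2 signal of both tested probes of Kcna5, Kcna6 and Abcc8 in every mouse, each less the mean of that probe in the 6 controls, with C for control and N for nitrate mice. Probe a of Kcna5 lies below the control mean in all nitrate mice and probe b does not, while both Abcc8 probes are highest in control 1 and nitrate 4.

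Other voltage-gated alpha subunits did not pass the threshold. The A-type channel gene Kcnd3 differed by 0.24 ± 0.12 (SE, adjusted p = 0.38 in limma). For Kcna2 the difference was -0.05 ± 0.20 (SE), and its sign turned in several alternatives.

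Of the 7 tested probes of auxiliary subunits, 1 was called, that of Kcne4. Kcne4 encodes a small membrane protein that associates with Kcnq and other voltage-gated channels and is known from arterial smooth muscle. It measured 8.15, 8.15, 7.81, 8.13 and 8.49 in nitrate mice, and 7.59, 7.66 and 7.79 as lowest, median and highest in the controls. Every nitrate mouse was above every control, with nitrate 3 only just so. The difference of 0.47 ± 0.10 (SE) was a 1.38-fold rise, with an unadjusted p of 0.000693 and an adjusted p of 0.123 in limma. A second Kcne4 probe was above background in 1 mouse and was not tested.

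The 250 bases before the start of Kcne4 (RefSeq, GRCm38.p6, chr1:78816661-78816910, plus strand) held 53.2% G and C, no GC box and 1 E-box CACGTG, in capitals.
Kcne4: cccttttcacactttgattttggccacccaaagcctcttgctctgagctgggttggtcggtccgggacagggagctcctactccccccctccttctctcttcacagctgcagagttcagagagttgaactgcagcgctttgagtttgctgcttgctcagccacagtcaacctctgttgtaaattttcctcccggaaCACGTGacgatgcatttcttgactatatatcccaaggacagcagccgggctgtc
The E-box, which reads the same on both strands, occurred in 6.25% of the 96 promoters of member genes, in 13.9% of the 36 promoters of members with a tested probe (5 promoters) and in 6.02% of all promoters. The TATA box TATAAA, searched on both strands, was found in 3.12%, 0% and 12.4% of them.

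Kcnab1, the cytoplasmic beta subunit of Shaker-related channels, differed by 0.17 ± 0.13 (SE, adjusted p = 0.574 in limma). Its signal ran from 11.42 to 11.76 in nitrate and from 10.96 to 11.72 in control mice. Kcnip3 and Kcnip4, calcium-binding partners of A-type channels, and Kcne3 and Kcne1l did not pass the threshold either, with differences from -0.02 to 0.20.

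Among calcium- and sodium-activated channels, 1 of 6 tested probes was called, that of Kcnt2, a sodium-activated channel. It measured 6.13, 6.65, 6.16, 6.45 and 6.14 in nitrate mice and 5.79, 5.87 and 6.00 as lowest, median and highest in the controls. All nitrate values lay above all control values, 3 of them close to the highest control. The difference of 0.42 ± 0.10 (SE) had an unadjusted p of 0.00112 and an adjusted p of 0.141 in limma. With normexp correction it was 0.22, below the fold limit, and the call was lost. A second Kcnt2 probe was above background on no array.

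The channels most often linked to nitric oxide in arteries did not pass the threshold without a block for slide. One probe of Kcnma1 measured 9.18, 8.85, 8.85, 8.96 and 8.97 in nitrate and 8.45, 8.90 and 9.09 as lowest, median and highest in control mice, a difference of 0.11 ± 0.12 (SE, adjusted p = 0.718 in limma). The other tested Kcnma1 probe differed by 0.33 ± 0.20 (SE, adjusted p = 0.472 in limma). With slide as a block it differed by 0.39 and passed the threshold as higher in nitrate, with 0.51, 0.21 and 0.39 on slides 1 to 3. Kcnmb1, the subunit that raises its calcium sensitivity, measured 11.08, 10.85, 10.85, 10.56 and 10.61 in nitrate and 10.31, 10.63 and 10.79 in control mice, a difference of 0.19 ± 0.11 (SE, adjusted p = 0.467 in limma). In both genes the lowest value was that of control 1, and the groups overlapped. The endothelial channel Kcnn4 differed by -0.13 ± 0.16 (SE, adjusted p = 0.763 in limma).

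The inward rectifier Kcnj12 was higher in nitrate mice and was 1 of 2 tested probes of its class. It measured 8.02, 7.95, 8.10, 8.06 and 7.94 in nitrate mice and 7.29, 7.75 and 8.01 as lowest, median and highest in the controls. The nitrate values were close together and overlapped only the highest control. The difference was 0.30 ± 0.11 (SE), with an unadjusted p of 0.0158 and an adjusted p of 0.27 in limma. Without control 1, the lowest control, it was 0.22, with normexp correction 0.22, and without control 1 and nitrate 4 it was 0.21. All 3 values are below the fold limit, so the call was lost in each. Kcnj15 differed by 0.44 ± 0.23 (SE, adjusted p = 0.402 in limma), with 9.23 to 10.28 in nitrate and 8.68 to 10.00 in control mice.

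None of the 4 tested probes of ATP-sensitive channels passed the threshold. Kcnj8 and Abcc9 together form the vascular type of this channel, and their probes lie 23.4 kb apart on chromosome 6. Kcnj8 measured 8.05 to 8.41 in nitrate and 7.99 to 8.32 in control mice, a difference of 0.08 ± 0.09 (SE, adjusted p = 0.71 in limma). Abcc9 measured 12.42 to 12.94 in nitrate and 12.25 to 12.89 in control mice, a difference of 0.09 ± 0.13 (SE, adjusted p = 0.804 in limma). These tests detected no difference beyond the spread between mice, which does not show that the levels were alike.

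Abcc8, the regulatory subunit known from pancreatic beta cells, neurons and atrium, stood out in 2 mice. One probe measured 7.29 in control 1 and 7.20 in nitrate 4, and between 4.70 and 5.44 in the other 9 mice. The second probe, which shares 47 of its 60 bases with the first, measured 7.93 and 7.62 in these mice and 6.80 to 7.22 elsewhere. The first 30 bases of both probes are shown so that the overlap can be seen (mm9, minus strand, chr7:53359938-53359967 for probe a and chr7:53359951-53359980 for probe b), with the shared bases in capitals.
Abcc8 probe a: GCACCTCACTTGCTTGCctagtgtttcgta
Abcc8 probe b: agcgtgccgccccGCACCTCACTTGCTTGC
Between the groups the probes differed by -0.06 ± 0.50 and -0.04 ± 0.20 (SE).

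Control 1 and nitrate 4 were also the arrays with the most signal of striated muscle genes. The summed linear signal of 10 such markers was 36100 in control 1 and 56200 in nitrate 4, and the medians of the groups were 2690 and 4360. Nppa, the atrial natriuretic peptide, measured 12.46 and 13.45 in these mice and 4.37 to 7.17 in the others. Beside Abcc8, from which the 2 arrays were picked out, they were also the highest for 1 probe each of Kcnj5, Kcnj11 and Kcng2, and of Kcnn2 and Kcnh8, whose probes were above background on no array. The gap to the next array was 2.08 for Kcnj5, 0.55 for Kcng2 and Kcnn2, 0.11 for Kcnj11 and 0.03 for Kcnh8. Other probes of Kcnj11, Kcng2 and Kcnh8 did not show it. Counting both Abcc8 probes, the 2 arrays were highest for 7 of 140 member probes (5%), against 1.28% of all probes. Kcnj5, a subunit of the atrial channel opened by acetylcholine, measured 5.91 and 6.47 in them and 2.10 to 3.83 elsewhere, and was above background in no other mouse. With both arrays left out, 8 potassium channel probes passed the threshold against 7.89% of all tested probes, and that of Kcnj12 was not among them. The 8 genes described as called or not overlapping in all mice kept an unadjusted p of at most 0.0315 in limma.

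Kcnk3 was the called gene of the K2P channels, where 1 of 6 tested probes passed. It encodes an acid-sensitive background channel known from arterial smooth muscle, heart and brown adipocytes. Its log2 signal was 10.68, 10.38, 10.90, 11.21 and 11.39 in nitrate mice, and 11.33, 11.43 and 11.97 as lowest, median and highest in the controls. Nitrate 1, 2 and 3 lay well below the controls, nitrate 4 just below, and nitrate 5 within their range. The log2 signal fell by 0.58 ± 0.18 (SE), a 1.498-fold difference, with an unadjusted p of 0.00663 and an adjusted p of 0.215 in limma.

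The difference in Kcnk3 was uneven between slides, at -1.13, -0.52 and -0.10 on slides 1 to 3, each of which held both groups. Without control 1, the highest control, it was -0.49 and still passed the threshold. Some fat cell markers were also lower in nitrate. Of 6 adipocyte markers 6 had the lower mean in nitrate and 3 passed the threshold, Adipoq, Retn and Cfd. Of 4 brown adipocyte markers 2 had the lower mean and 1, Cidea, passed it. Cidea measured 16.30, 15.95, 16.33, 16.78 and 16.78 in nitrate mice and 16.74 to 17.37 in controls, with control 1 highest as for Kcnk3. From mouse to mouse the adipocyte markers were mixed beside Kcnk3. In Adipoq, Retn and Cfd control 3 was the highest control, and in Plin1, Lep and Fabp4 it was control 1. Of the nitrate mice, Kcnk3 was lowest in nitrate 2 and highest in nitrate 5. In these mice Retn measured 13.03 and 12.20, Cfd 17.08 and 16.49, Lep 5.56 and 5.03 and Adipoq 14.34 and 14.31. Plin1 measured 12.89 and 13.38 in them, and Fabp4 16.79 and 17.15. Ucp1 differed by 0.23 (adjusted p = 0.828 in limma), with an SD of 0.91 in nitrate and 0.52 in control mice. Elovl3 differed by 0.23 (adjusted p = 0.907 in limma), with an SD of 0.79 and 1.42. Both had the higher mean in nitrate. Both were also lowest in nitrate 2 and highest in nitrate 5 among nitrate mice, and highest in control 1 among controls. The summed linear signal of the adipocyte list was 229000 to 293000 in nitrate and 295000 to 409000 in control mice, and that of the brown adipocyte list 110000 to 262000 and 183000 to 314000. Their part in the lower Kcnk3 signal was not tested.

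**Figure D4:**
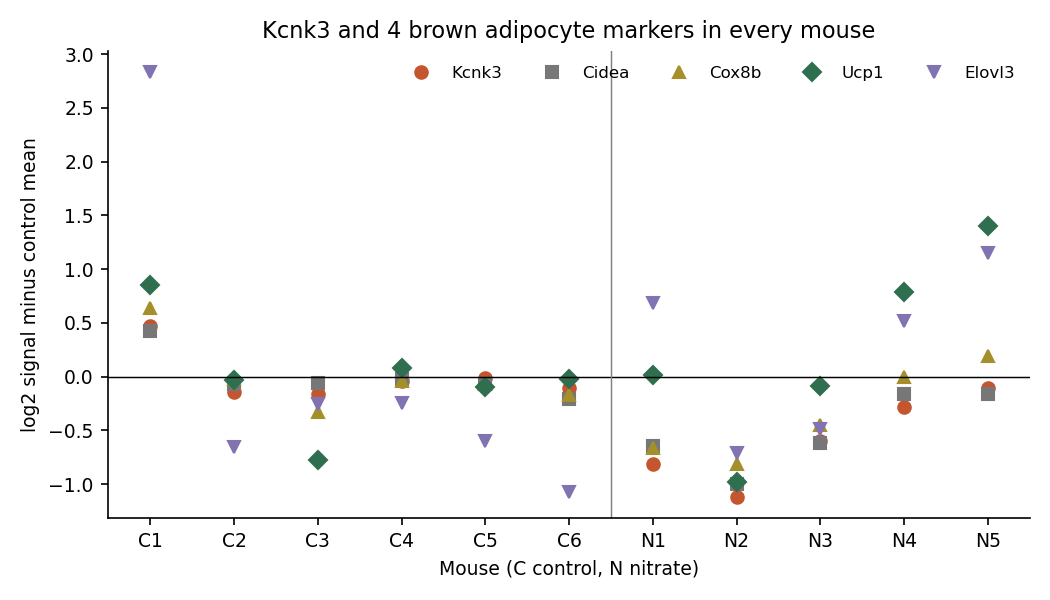
Log2 signal of Kcnk3 and of the 4 brown adipocyte markers Cidea, Cox8b, Ucp1 and Elovl3 in each mouse, less the mean of the gene in the 6 controls, with C for control and N for nitrate mice. Kcnk3, Cidea and Cox8b are each highest in control 1, lowest in nitrate 2 and nearer to the controls in nitrate 4 and nitrate 5. Ucp1 and Elovl3 are likewise lowest in nitrate 2 and highest in nitrate 5 among nitrate mice, and highest in control 1 among controls. Both have the higher mean in nitrate.

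The other tested K2P genes did not pass the threshold. Kcnk6, a weakly inward rectifying channel of vascular muscle, differed by 0.05 ± 0.10 (SE, adjusted p = 0.86 in limma). Kcnk4, Kcnk13, Kcnk15 and Kcnk16 had differences from -0.12 to 0.17. Kcnq1ot1 differed by -0.04 ± 0.12 (SE, adjusted p = 0.907 in limma).

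**Figure D5:**
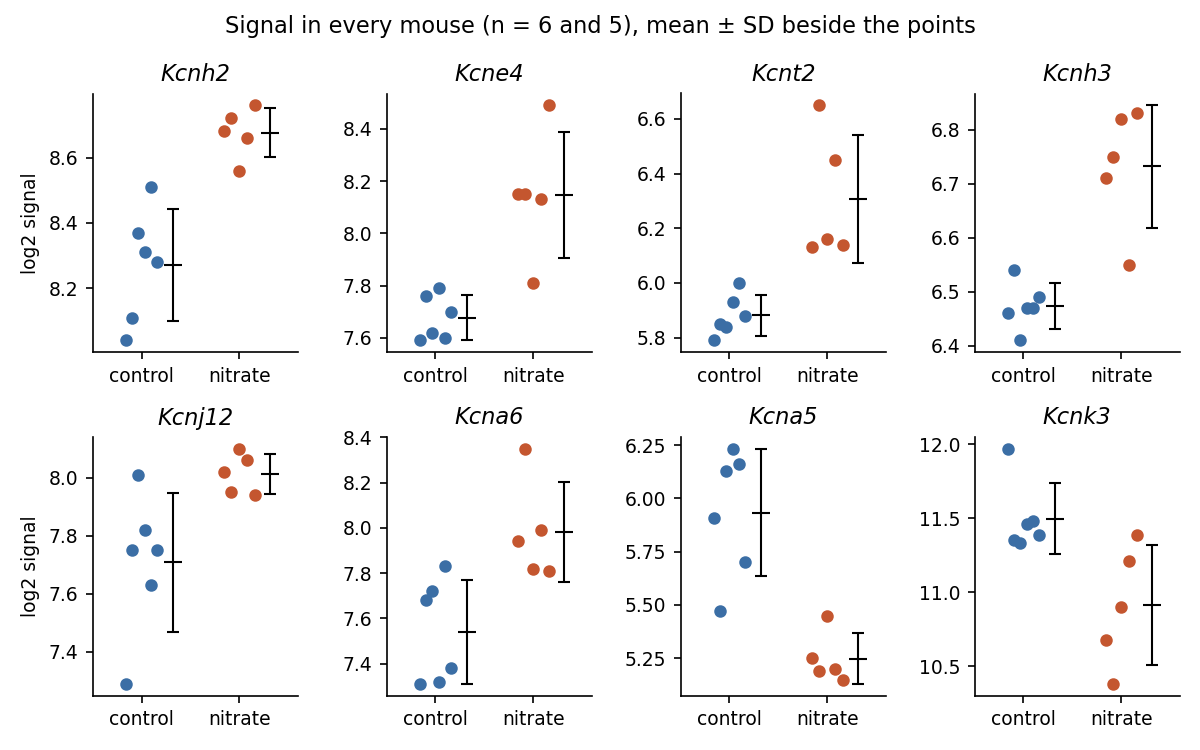
Log2 signal in each mouse for the 8 potassium channel probes that passed the threshold or whose groups did not overlap, in 6 control and 5 nitrate mice, with the mean ± SD beside the points. Kcnh2, Kcne4, Kcnt2 and Kcnh3 are higher and Kcna5 lower in every nitrate mouse than in every control mouse, and the axes differ between panels.

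The 8 genes Kcnh2, Kcnh3, Kcna6, Kcna5, Kcne4, Kcnt2, Kcnj12 and Kcnk3 had exact permutation p values of 0.00216 to 0.013 (two-sided, 462 divisions of the mice, where 0.00216 is the smallest possible). These values are no further support, since the genes were chosen on the same contrast, and for the 5 whose groups did not overlap the choice alone holds them at 0.00216 or 0.00433. For Kcne4 the differences on slides 1 to 3 were 0.47, 0.06 and 0.70, and for Kcna6 0.65, 0.47 and 0.13. For the same 5 genes, Kcne4 among them, one sign on every slide also follows from the choice. With slide as a block, 10 members passed the threshold against 10.4% of all tested probes, 7 of them higher in nitrate against 5.02%. The higher ones were the 5 called without the block, Kcnh3 and 1 Kcnma1 probe. All controls lay in the third column of their slides and no nitrate sample did, so that column and treatment cannot be told apart.

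Genes that act with potassium channels were read from lists of other channels and regulators. These lists and those of cell markers used 1 probe for each name, and 8.89% of all names tested passed the threshold that way. Of 16 tested calcium and cation channel genes, Cacna2d1, a calcium channel subunit (0.27), and Ryr2, a calcium release channel (0.48), were higher, and Itpr2, another release channel (-0.40), was lower. The median difference over these genes was 0.09, against 0.01 over all tested probes. None of 7 tested chloride channel and cotransporter genes passed. Of 14 kinases, anchors and enzymes of cGMP signaling, the guanylyl cyclase subunit Gucy1a3 was higher (0.30) and the cGMP phosphodiesterase Pde5a lower (-0.33). None of 3 tested partners of the large-conductance and A-type channels passed.

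Markers of the other cells of the vessel were present. All 7 endothelial and 5 fibroblast markers were tested and none passed the threshold, nor did any of 6 leukocyte and 3 neuronal markers. Of 5 Schwann cell markers Mal was higher (0.30) and Mbp lower (-0.46).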

How the data were processed

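RNA of the aorta was measured on one-color arrays with 60-base probes in 5 nitrate and 6 control mice. Per the file headers, the deposited spot intensity and quality flags came from Feature Extraction 10.7.1.1, with the local background removed and no scaling across arrays. The authors also deposited a table of log2 values, which was found to be quantile normalized and centred on the median of the arrays, and it served as an alternative. Every column matched a sample.

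Signals below 1 were set to 1 before the log2 was taken. Spots marked as outliers were dropped, repeated spots of a probe were averaged, and arrays were quantile normalized. A probe carried a flag where at least 50% of its spots did. A probe was tested if, in either group, it was both found and bright enough (well above background) on 5 or more arrays. Groups were compared with lmFit and eBayes (limma 3.58.1, R 4.3.3) over all 11 arrays at the threshold of the methods, with Benjamini-Hochberg adjustment over all 23633 tested probes, and with exact permutation tests. Values of probes not tested are not given p values. The number of arrays limits the precision, and no spot was saturated. The procedure was tested on simulated data.

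The arrays were 3 slides. The 75th percentile of the intensity ran from 213 to 289, and at most 186 spots of an array were flagged as outliers. Genes were named by rule: members called, not overlapping between groups, with the smallest p of a class, or on a list of vascular channels. Kcnj15, Kcnd3, Kcnj5 and the ranges of further members fall outside it and were chosen after their values were seen. Some genes are not reported here and stand only in the counts. Members and lists were chosen with earlier results of these data known. Promoters came from a RefSeq table of GRCm38.p6, and gene names and probe positions (mm9) are those of the files.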

Additional observations from a re-analysis of the deposited data

Results flagged for a closer look

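Among 40 groups of values of named potassium channel probes, 2 held 1 mouse far from the rest, where about 1 in 20 groups, or 2 here, would do so by chance. Both were control 1. The gap to the nearest other control, as a share of the range of the group, was 0.673 for Abcc8 and 0.76 for Kcnk3, in each of which control 1 was high. Control 1 also had the most brown adipocyte signal of all mice, the least smooth muscle signal and, of the controls, the most striated muscle signal, and the part of these in the Abcc8 and Kcnk3 values was not tested.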

How the results depend on the processing

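Each of 19 named probes was recomputed under 21 alternatives, and 386 of 399 values kept their sign and their side of the unadjusted threshold of limma. The 8 probes called or not overlapping did so throughout, though for the 5 not overlapping the choice itself fixes the sign with arrays left out or within slides. With the fold limit as well, Kcna5, Kcna6, Kcne4, Kcnh2 and Kcnk3 stayed called in all 21 alternatives, Kcnt2 lost its call with normexp, and Kcnj12 lost its call with normexp, without control 1 and without control 1 and nitrate 4. Kcnh3 was called in 5 of 21. The count of 7 called members ran from 7 to 10 with 1 array left out (higher 5 to 7, lower 2 to 3). It was 0 at an adjusted p under 0.05 in limma (0 higher, 0 lower), where 8 had an unadjusted p under 0.05. Members called higher were 3 with normexp correction and 8 with no filter, where more probes are tested. Called lower was 1 on the filter of all 11 arrays and 1 at an adjusted p under 0.2. The normexp correction also added an offset of 50 to every signal, which shrinks log2 differences most where the signal is low. The part of the offset in the lost calls was not tested, nor was the cause for the filter of all arrays. Replicate numbers did not pair the mice (correlations of deviations -0.14 to 0.18), and with the replicate block 8 members were called, 5 higher and 3 lower. Signs turned only in small differences. With 1 array left out Abcc8 ran from -0.17 to 0.11, Kcnq1ot1 from -0.088 to 0.023, Kcna2 from -0.19 to 0.046 and the second Kcna5 probe from -0.25 to 0.016. Kcnq1ot1 was 0.023 with the replicate block, Kcna2 was 0.0045 with normexp, and Kcnk6 was -0.018 without control 1 and nitrate 4. Other scalings left the median difference of the members between 0.077 and 0.11. Signal near background limits dim probes.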
